A study of Mus musculus with 12 samples.

Results

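The members here are the 4 arrays of E17.5 male gonads and the 4 arrays of E15.5 male gonads, 8 of the 12 arrays of the study, taken by their stage label and compared with strain as a factor over every probe set that is not a control. Each stage holds 2 arrays of 129/Sv, an inbred strain, and 2 arrays of M19, the chromosome substitution strain labelled 129.MOLF-Chr 19, whose chromosome 19 comes from the MOLF strain on an otherwise 129/Sv background. The animals were male embryos, staged by embryonic day (E), with no treatment named, and the labels give the tissue both as genital ridges and as testis. The labels state that RNA for 2 arrays came from a pool of 40 pairs of testes. If a group's arrays share that pool, p-values here reflect only technical spread. The 4 remaining arrays, of E13.5, were used only for the step before this one. The study asked which genes differ between the stages within each strain and between the strains at each stage.

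Over these days the germ cells of the fetal testis lie inside cords and have largely stopped dividing already. They are then called prospermatogonia, lose the pluripotency factors that they carried from the primordial germ cell stage, and use Piwi proteins with small piRNAs to silence transposons. Sertoli cells form the cords around them and secrete hormones such as anti-Müllerian hormone and inhibin, fetal Leydig cells between the cords make androgen from cholesterol, and peritubular cells become a smooth muscle layer that shares a basement membrane with the Sertoli cells. A whole gonad mixes all of these with vessels and blood, so in these bulk samples fewer cells of a type and less RNA per cell cannot be told apart.

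Values are deposited log2 signal, 1 per probe set and array; each gene is represented by its brightest probe set on average, and signals of different genes were not compared. The array medians of the 8 arrays ran from 8.14 to 8.22, and an array's correlation with the other array of its group ran from 0.987 to 0.994. Probe sets for 18S ribosomal RNA read 6.88 to 8.38 at E15.5 and 7.45 to 7.57 at E17.5. Signals below 8.17, the median of all probe sets, may be background, since no detection calls were used. Above that median on all 8 arrays lay all 4 defining markers of germ cells and all 4 of Sertoli cells. So did the 3 measured ones each of fetal Leydig cells, peritubular muscle and endothelium. The median did not set the testis apart from other tissues. Also above it on all 8 were 2 of 3 adrenal and 1 of 2 duct markers. For macrophages, red cells, cartilage and liver it was 1 of 3 each, for skeletal muscle 1 of 4 and for skin 0 of 4. The 3 of neurons lay below it on all 8.

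The 129/Sv arrays of E15.5 stood apart from the rest in genes of tissues outside the gonad. The summed signal of 15 skin genes was 14.32 and 14.42 (log2) on these 2 arrays, against 12.75 to 13.09 in 129/Sv at E17.5, 12.76 to 12.87 in M19 at E15.5 and 12.87 to 12.89 in M19 at E17.5. That of 18 skeletal muscle genes was 13.17 to 13.19, against 12.25 to 12.26, 11.97 to 11.98 and 12.25 to 12.31 in the same order. That of 17 cartilage and tendon genes was 13.36 to 13.45, against 12.53 to 12.55, 12.68 to 12.72 and 12.56 to 12.58. The skin keratin Krt1 read 11.30 and 11.39 there and 7.64 to 8.04 on the other 6 arrays. A shared change is one whose step, averaged over both strains, passed an adjusted p of 0.05 (limma, Benjamini-Hochberg), with both E17.5 arrays on the same side of both E15.5 arrays in each strain. A gene with a large step in 129/Sv and a small one in M19 can still meet it. Leaving out the genes that were over 0.5 higher in 129/Sv than in M19 at E15.5 left 838 of the 867 shared higher and 704 of the 743 shared lower genes described below. The fit was not repeated, and the rule already asks for the same direction in M19. These counts therefore cannot show how such tissues moved the remaining genes. The part of these tissues in other results was not tested.

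Between E15.5 and E17.5, embryonic globins and germ cell pluripotency genes fell furthest in both strains. Some of the genes listed here for Sertoli cells (10 of 27), fetal Leydig cells (8 of 11) and peritubular muscle (9 of 14) were shared higher. Serpina5, Cyp21a1 and Myh11 were among them. In the Sertoli list 2 genes were shared lower, and none of the 4 defining Sertoli cell markers was shared higher. The average step passed the threshold for 3090 of 45037 probe sets, 6.86% of those tested, 1563 higher (3.47%) and 1527 lower (3.39%). Of 18032 genes, 867 were shared higher, 4.81% of those tested, and 743 were shared lower, 4.12%. Every count of shared changes in a list below is to be read beside these shares. Over probe sets, 3.37% were shared higher and 3.08% shared lower; without any test, 13.7% were higher and 8.76% lower with no overlap in either strain. With each array centred on its median the split turned, to 717 higher and 999 lower. Most steps were small: the median shared step was 0.46 among the higher genes and -0.50 among the lower genes, and in the strain with the smaller step 32 higher and 34 lower genes moved by at least 1. The step in 129/Sv alone was called for 700 probe sets (1.55%; 0.697% higher and 0.857% lower) and the step in M19 alone for 890 (1.98%; 0.899% higher and 1.08% lower). Of these, 323 (0.717%) were called in both with the same sign, 171 higher (0.38%) and 152 lower (0.338%). A further 6 were called in both with opposite signs.

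These counts depend on single arrays. Leaving out the first or the second M19 array of E15.5 left 854 and 1544 called probe sets, the first or second 129/Sv array of E17.5 left 1376 and 1095, and the first M19 array of E17.5 left 1611. The second 129/Sv array of E15.5 left 2411, the second M19 array of E17.5 left 2127, and the first 129/Sv array of E15.5 raised the count to 3611. Shared higher genes numbered 264 and 397 without the first or second M19 array of E15.5, 378 and 303 without the 129/Sv arrays of E17.5, and 477 and 492 without the M19 arrays of E17.5. Shared lower genes numbered 221 and 439, 352 and 307, and, without the first M19 array of E17.5, 394. The count called in both strains was 78 and 97 without the M19 arrays of E15.5, 103 and 76 without the 129/Sv arrays of E17.5, and 183 and 200 without the M19 arrays of E17.5. The count in 129/Sv alone was 425 without either M19 array of E15.5 and 201 and 135 without its own E17.5 arrays. The count in M19 alone was 97 and 140 without its own E15.5 arrays, 275 and 461 without its own E17.5 arrays, 465 without either 129/Sv array of E17.5 and 1389 without either 129/Sv array of E15.5. Among the 30 genes ranked by the smaller of both strains' steps, 15 each way, 3 lost their call: Efemp1, Kdm1b and Maob. They lost it only when variances were not shared between probe sets. The others kept it in every alternative fit that held their probe set. The mean of a gene's probe sets was not tried for them. All 30 were picked on these same arrays for large steps, so keeping a call is not independent evidence.

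**Figure D1:**
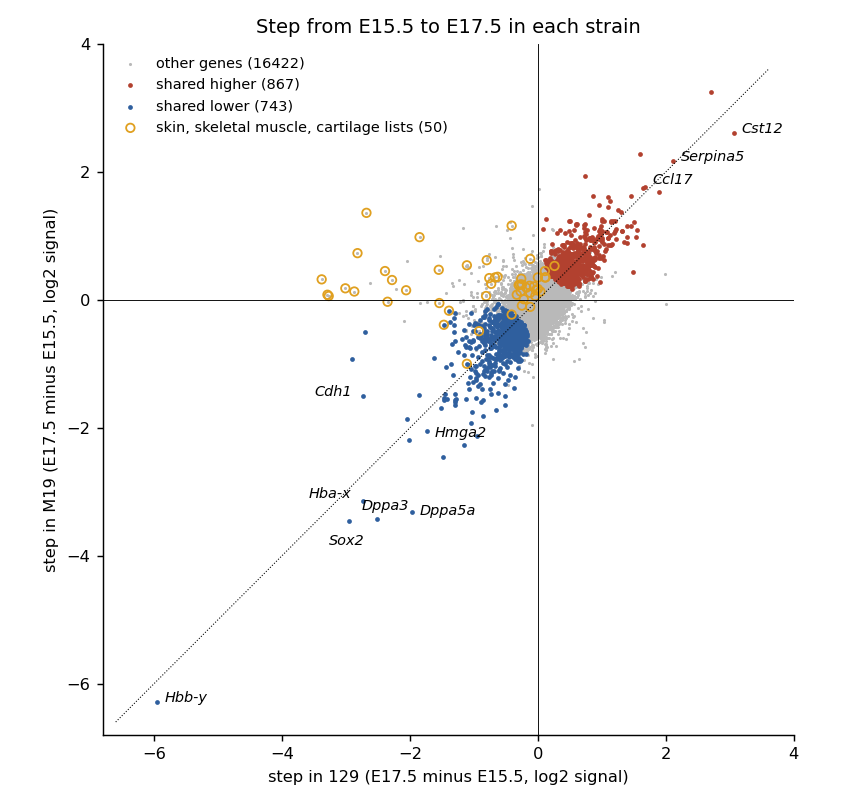
Step from E15.5 to E17.5 of 18032 genes, in 129/Sv (x axis) and in M19 (y axis), as differences of log2 signal. Red and blue points are the 867 shared higher and 743 shared lower genes, grey points are all others, orange rings are 50 genes of the skin, skeletal muscle and cartilage lists, and the dotted line marks equal steps. Hbb-y lies far below the other genes near the line, and 16 of the ringed genes lie over 1 below 0 in 129/Sv but within 1 of 0 in M19.

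The steepest fall of all genes was that of an embryonic globin, and the other measured embryonic globins described here fell with it. Hbb-y, the embryonic beta-like globin of red cells made in the yolk sac, read 12.55 and 12.56 in 129/Sv and 12.74 and 12.67 in M19 at E15.5, and 6.62 and 6.56 in 129/Sv and 6.30 and 6.55 in M19 at E17.5. All 4 later arrays lay below the array median, so that its fall of 6.12 (SE 0.09, 69.7-fold, limma adjusted p = 4.5e-09) may understate the change. Hba-x, the embryonic alpha-like globin zeta, read 10.58 to 11.10 at E15.5 and 7.75 to 7.86 at E17.5, a fall of 2.94 (SE 0.09, adjusted p = 1e-06). The groups did not overlap for either gene, which the rule for a shared change requires within each strain. Both had already fallen before E15.5, with early steps of -1.87 for Hbb-y and -2.71 for Hba-x. The early embryonic Hbb-bh1 fell by 1.01 (SE 0.11, adjusted p = 0.0015) from 8.12 to 8.58, close to the array median. Slc4a1, the anion exchanger of the red cell membrane, fell by 1.50 and the blood group gene Rhd by 0.47, while Alas2, the enzyme that starts heme synthesis in red cells, rose by 0.50 (adjusted p = 0.011). Alas2 was no longer called when either of 2 arrays was left out, and its highest adjusted p over all alternatives was 0.066. In all, 5 of 14 red cell genes were shared lower and 1 was shared higher (4.12% and 4.81% over all genes). The probe sets of Hbb-y and Slc4a1 may also bind related transcripts.

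The proximal promoters of both embryonic globins (RefSeq sequences around the annotated start) are shown because these genes led the step. Each holds 1 of the classical globin promoter boxes in the exact form searched (CCAAT and TATAAA, both strands, in capitals). Hbb-y lies at chr7:103853158-103853457 on the minus strand and Hba-x at chr11:32276350-32276649 on the plus strand of GRCm38.p6, the RefSeq build used for names. CCAAT begins 83 bases before the start of Hbb-y and TATAAA 28 bases before that of Hba-x. TATAAA was added to the search after results were seen. Of the 18009 promoters found for 14368 of the 18032 genes, 37.4% hold CCAAT and 9.76% hold TATAAA.
Hbb-y: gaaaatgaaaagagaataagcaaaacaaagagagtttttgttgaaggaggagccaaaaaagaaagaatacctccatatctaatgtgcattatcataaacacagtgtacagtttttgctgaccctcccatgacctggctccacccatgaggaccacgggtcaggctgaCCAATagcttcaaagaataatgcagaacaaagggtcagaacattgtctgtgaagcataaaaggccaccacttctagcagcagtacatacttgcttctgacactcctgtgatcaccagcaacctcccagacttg
Hba-x: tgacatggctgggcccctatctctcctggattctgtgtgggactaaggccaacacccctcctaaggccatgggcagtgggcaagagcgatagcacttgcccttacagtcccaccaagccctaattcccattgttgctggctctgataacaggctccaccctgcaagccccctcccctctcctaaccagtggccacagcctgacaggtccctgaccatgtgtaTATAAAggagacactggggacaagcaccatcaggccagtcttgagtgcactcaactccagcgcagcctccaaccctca

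Of 20 pluripotency genes of the germ line, 11 were shared lower and 2 were shared higher (4.12% and 4.81% over all genes). The median step was -0.57 against 0.04 over all genes. The members were chosen with earlier results of these data known, so the direction is not independent evidence. Sox2, a transcription factor of the pluripotency network, read 8.34 and 8.89 in 129/Sv and 10.34 and 10.19 in M19 at E15.5. At E17.5 it read 5.78 and 5.53 in 129/Sv and 6.56 and 7.07 in M19, below the array median on all 4 arrays, so that its steps may understate the change. It fell by 3.20 (SE 0.15, 9.22-fold, adjusted p = 1.7e-05), by 2.96 in 129/Sv and 3.45 in M19. The strains differed in level at E15.5 but moved the same way, and the difference between their steps did not pass the test (adjusted p = 0.96).

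Dppa3, a maternal and germ cell factor also known as Stella, read 11.31 and 11.58 in 129/Sv and 12.35 and 12.19 in M19 at E15.5, and 8.77 to 8.95 on all 4 arrays of E17.5. It fell by 2.97 (SE 0.09, 7.84-fold, adjusted p = 1e-06). Dppa5a, which binds RNA in pluripotent cells, read 10.43 and 10.44 in 129/Sv and 12.17 and 11.93 in M19 at E15.5, and 8.46 to 8.78 at E17.5. Its fall was larger in M19 (3.31) than in 129/Sv (1.97), a difference of -1.34 that passed the test (adjusted p = 0.023). For both genes the strains lay closer together at E17.5 than at E15.5.

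Pou5f1, which encodes OCT4, fell by 1.60 (SE 0.09, adjusted p = 3.5e-05), from 10.68 and 10.75 in 129/Sv and 11.42 and 11.38 in M19 to 9.07 and 9.34 in 129/Sv and 9.75 and 9.67 in M19. It stayed above the array median on every array. Zfp42 (REX1) fell by 1.39, Dppa4 by 1.24 and Sall4, a zinc finger factor that works with OCT4, by 0.76, each called in 129/Sv and in M19 separately. Lin28a, an RNA-binding protein that blocks let-7 processing, fell by 1.71 on average (adjusted p = 0.0034), with steps of -1.16 in 129/Sv, where it missed the threshold (adjusted p = 0.13), and -2.27 in M19. Its other probe set fell by 1.75 (limma adjusted p = 0.00039), with steps of -1.86 in 129/Sv and -1.65 in M19. Tdgf1, the Nodal co-receptor CRIPTO, and L1td1, an RNA-binding protein, rose instead, by 1.34 (adjusted p = 0.006) and 0.53 (adjusted p = 0.0067). Both had fallen by over 3 before E15.5, and both stayed below the array median at E17.5.

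Of 20 piRNA pathway genes, 10 were shared lower and none was shared higher (4.12% and 4.81% over all genes). The median step was -0.46 after a median rise of 1.63 from E13.5 to E15.5. The late step was more negative than the early one for 19 of the 20 members (limma, adjusted p under 0.05), against 906 of all genes (5.02%); both steps share the E15.5 arrays, so a high value there raises one and lowers the other. Morc1, a protein needed for transposon silencing in the male germ line, read 11.40 to 11.60 on the 4 arrays of E15.5 and 10.14 to 10.49 on those of E17.5. It fell by 1.26 (SE 0.09, adjusted p = 0.00013) after a rise of 4.02. Nxf2, an X-linked RNA export factor, showed the same course, with a rise of 4.18 and then a fall of 0.83 (SE 0.08, adjusted p = 0.00099).

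Asz1, which anchors piRNA processing at mitochondria, fell by 1.34 (SE 0.12, limma adjusted p = 0.00057) and the Tudor domain gene Tdrd5 by 1.23 (SE 0.10, adjusted p = 0.00034). Exd1, a partner of the piRNA biogenesis machinery, fell by 0.74 (adjusted p = 0.0048). The germ cell helicase Ddx4 fell by 0.61 (adjusted p = 0.027), from 12.09 to 12.45 at E15.5 to 11.50 to 11.94 at E17.5, but lost its call when any of 5 arrays was left out, and its highest adjusted p over all alternatives was 0.16. Other members did not pass the test: the Piwi gene Piwil2 changed by -0.11 (adjusted p = 0.53), Mael by -0.07 (adjusted p = 0.6) and Tex15 by -0.17 (adjusted p = 0.26). Piwil4 changed by -0.55, which did not pass the test (adjusted p = 0.065), while its other, dimmer probe set fell by 0.56 (adjusted p = 0.0065) in both strains. The germ cell marker Dazl changed by -0.29, also short of the threshold (adjusted p = 0.12), by 0.11 in 129/Sv and -0.69 in M19; its other probe set fell by 0.46 (adjusted p = 0.038), with steps of 0.11 and -1.02. The part that a change in the share of germ cells has in these values was not tested; of the 4 defining germ cell markers, Ddx4 and Pou5f1 were shared lower and Mael and Dazl were not.

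Of 17 meiosis genes, 5 were shared lower and none was shared higher (4.12% and 4.81% over all genes). Tex11, an X-linked gene of meiotic recombination, read 8.15 to 8.63 at E15.5 and 6.79 to 7.12 at E17.5, a fall of 1.48 (SE 0.10, adjusted p = 0.00011). The other 4 were Sycp1, Sycp2, Sycp3 and Syce1, which build the synaptonemal complex that joins paired chromosomes. Sycp1 fell by 1.13 (SE 0.08, adjusted p = 0.00013), from 8.65 to 9.35 to between 7.81 and 7.92. Sycp3 fell by 1.04 (adjusted p = 0.0034), by 0.62 in 129/Sv, where it missed the threshold (adjusted p = 0.19), and by 1.46 in M19. Sycp2 fell by 0.86 (adjusted p = 0.0057). Among 12 RNA regulators of germ cells, 3 were shared lower and 1 was shared higher: Dnd1, which protects germ cell messages from microRNAs and whose loss leads to testicular germ cell tumours in 129/Sv mice, fell by 1.03 (SE 0.08, adjusted p = 0.00023) from 10.85 to 11.03 at E15.5 to 9.75 to 10.15 at E17.5. Cpeb1, a regulator of poly(A) tails, fell by 1.01 (adjusted p = 0.0019). Of 18 spermatogonial factors only Id4, a marker of early spermatogonial stem cells, was a shared change, with a fall of 1.05 (limma adjusted p = 0.0048). Over all genes 4.12% were shared lower. By their brightest probe sets none of 11 DNA methylation genes was called (limma, with none at an unadjusted p under 0.05 either). The probe sets of Dnmt3a, a de novo methyltransferase, disagreed: the brightest changed by 0.16 (adjusted p = 0.37), while others fell by 0.55 (adjusted p = 0.011) and 0.49 (adjusted p = 0.039) in both strains. Dnmt3l, the cofactor of de novo methylation in male germ cells, changed by 0.08 (adjusted p = 0.61) after a rise of 2.81 before E15.5.

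The promoters of Sycp1 and Sycp3 are shown because both genes fell together and each holds the palindromic E-box CACGTG, in capitals. The motif was found in 5 of 15 promoters of the piRNA and meiosis genes that were shared lower (33.3%) and in 8.74% of all promoters; it was added to the search after results were seen. It begins 94 bases before the start of Sycp1, and 64 and 43 bases before that of Sycp3. Sycp1 lies at chr3:102936051-102936350 on the minus strand and Sycp3 at chr10:88459337-88459636 on the plus strand.
Sycp1: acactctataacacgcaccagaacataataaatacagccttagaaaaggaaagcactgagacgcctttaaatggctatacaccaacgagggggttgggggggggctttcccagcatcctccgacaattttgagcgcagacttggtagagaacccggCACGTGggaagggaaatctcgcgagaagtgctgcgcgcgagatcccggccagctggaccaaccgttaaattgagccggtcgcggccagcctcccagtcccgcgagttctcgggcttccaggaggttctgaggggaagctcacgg
Sycp3: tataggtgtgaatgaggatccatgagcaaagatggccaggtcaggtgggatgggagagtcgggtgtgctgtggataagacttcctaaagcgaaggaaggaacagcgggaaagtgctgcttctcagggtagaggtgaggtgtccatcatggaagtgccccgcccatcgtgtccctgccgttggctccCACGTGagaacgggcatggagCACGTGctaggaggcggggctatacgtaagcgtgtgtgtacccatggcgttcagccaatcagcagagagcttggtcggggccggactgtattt

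**Figure D2:**
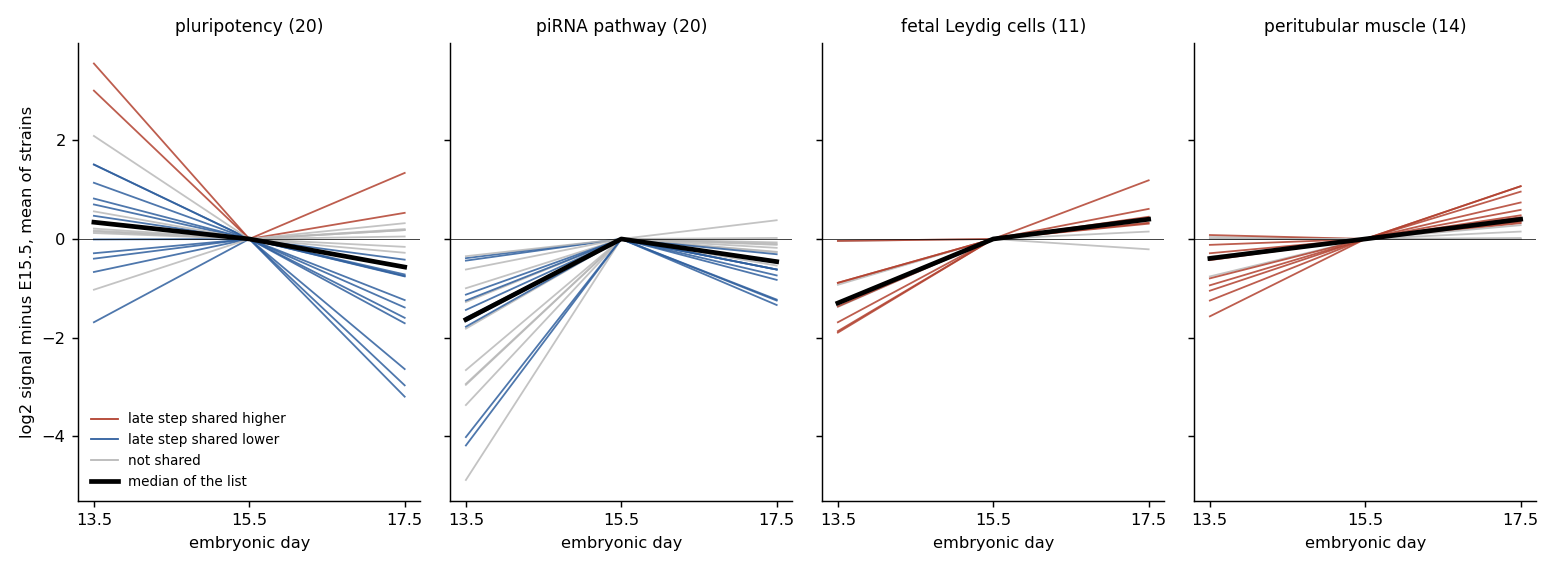
Mean log2 signal of both strains at E13.5, E15.5 and E17.5, less that at E15.5, for the members of 4 gene lists. Each thin line is a gene, coloured by its late step (red shared higher, blue shared lower, grey neither), and the black line is the median of the list. The piRNA genes rise by a median of 1.63 and then change by -0.46, whereas the fetal Leydig genes rise by 1.30 and then by 0.40.

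Of 29 mitosis genes measured, 7 were shared lower and none was shared higher (4.12% and 4.81% over all genes), with a median step of -0.13. The count was 2 without the first M19 array of E15.5, 3 without the second 129/Sv array of E17.5, and 4 without the second 129/Sv array of E15.5, the first 129/Sv array of E17.5 or the first M19 array of E17.5. Bub1, a kinase of the spindle checkpoint, read 10.89 and 11.25 in 129/Sv and 11.62 and 11.42 in M19 at E15.5 and 10.48 to 10.66 on the 4 arrays of E17.5. It fell by 0.76 (SE 0.10, limma adjusted p = 0.0041), while its other, dimmer probe set changed by -0.08 (adjusted p = 0.66). Cenpe, a kinetochore motor, fell by 0.60 (adjusted p = 0.0074), the checkpoint gene Mad2l1 by 0.58 (adjusted p = 0.0075) and Cdca8, a subunit of the chromosomal passenger complex, by 0.46 (adjusted p = 0.012). Mad2l1 and Cdca8 lost their calls without 1 and 2 of the 8 arrays respectively. Of 27 DNA replication genes 1 was shared lower and 1 shared higher, close to the 4.12% and 4.81% over all genes.

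The promoters of Bub1 and Cdca8 show the elements for which late cell cycle genes are known, the CCAAT box and the TTTGAA element (capitals, either strand). CCAAT was found in 20 of the 25 promoters matched to the mitosis list (80%) against 37.4% of all promoters, and TTTGAA in 18 of 25 (72%) against 13.4%. Among the 7 mitosis genes that were shared lower, 5 hold CCAAT (71.4%) and 4 hold TTTGAA (57.1%). Bub1 (chr2:127831810-127832109, minus strand) holds CCAAT on both strands, at 42 and 68 bases before the start, and no TTTGAA. Cdca8 (chr4:124936868-124937167, minus strand) holds CCAAT 4 times on the opposite strand, the last sharing a base with TTTGAA, which begins 13 bases after the start. TTTGGCGC, TTTCCCGC, GCGGGAA, CAAGGTCA, TGACGTCA, the sterol regulatory element and the CArG box were also searched on both strands and are not shown.
Bub1: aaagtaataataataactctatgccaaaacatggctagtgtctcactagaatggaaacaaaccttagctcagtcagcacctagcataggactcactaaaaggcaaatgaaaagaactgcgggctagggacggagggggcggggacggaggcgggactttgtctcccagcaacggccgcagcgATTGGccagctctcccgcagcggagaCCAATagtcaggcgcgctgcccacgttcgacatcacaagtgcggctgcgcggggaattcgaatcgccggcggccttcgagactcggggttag
Cdca8: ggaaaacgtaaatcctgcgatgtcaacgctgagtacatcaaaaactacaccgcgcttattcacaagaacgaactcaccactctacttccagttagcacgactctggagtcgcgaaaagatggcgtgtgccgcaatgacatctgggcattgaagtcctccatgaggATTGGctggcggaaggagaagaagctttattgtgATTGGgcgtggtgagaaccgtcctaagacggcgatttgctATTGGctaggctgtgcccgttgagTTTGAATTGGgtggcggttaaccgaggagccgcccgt

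Of 27 Sertoli cell genes measured, 10 were shared higher and 2 shared lower (4.81% and 4.12% over all genes), and the median step was 0.29. None of the 4 defining Sertoli cell markers was shared higher. Sox9 changed by -0.10 (limma adjusted p = 0.68) and Dhh by 0.15 (adjusted p = 0.35), and Amh and Cldn11 are given below. Serpina5, a serine protease inhibitor, read 8.48 and 8.66 in 129/Sv and 8.05 and 7.94 in M19 at E15.5, and 10.73 and 10.65 in 129/Sv and 10.10 and 10.23 in M19 at E17.5. It rose by 2.15 (SE 0.08, 4.43-fold, adjusted p = 5.3e-06), by 2.12 in 129/Sv and 2.17 in M19. Hsd17b1, a 17-beta-hydroxysteroid dehydrogenase known for reducing estrone, rose by 1.20 (SE 0.07, adjusted p = 7.4e-05), from 9.94 to 10.17 to between 11.18 and 11.37. Inha, the inhibin alpha subunit, rose by 1.00 (SE 0.08, adjusted p = 0.00037), from 11.99 to 12.07 at E15.5 to 12.91 to 13.16 at E17.5. The stages did not overlap for any of the 3, which the rule for a shared change requires within each strain.

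Fshr, the receptor of follicle-stimulating hormone, rose by 0.65 (adjusted p = 0.0074), and Inhbb, the beta B subunit of inhibin and activin, by 0.51 (adjusted p = 0.013), the latter without its call when any of 3 arrays was left out. Amh read 11.30 to 11.85 at E15.5 and 11.51 to 12.62 at E17.5, and its change of 0.53 did not pass the test (adjusted p = 0.11). The stages overlapped in 129/Sv. Fgf9, the signal that keeps the gonad on the male course, fell by 0.74 (SE 0.10, adjusted p = 0.0035) and was called in each strain, but its other probe set changed by 0.00 (adjusted p = 0.99). The tight junction gene Cldn11 fell by 0.49 (adjusted p = 0.012) and lost its call without 2 of the arrays. The count of 10 was 4 without either M19 array of E15.5 and 5 without either 129/Sv array of E17.5. Serpina5, Hsd17b1, Inha and Fgf9 were called without any of these.

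Of 11 fetal Leydig cell genes, most of them of steroid synthesis, 8 were shared higher and none lower (4.81% and 4.12% over all genes). The median step was 0.40 after a median early rise of 1.30. The late step was more negative than the early one for 8 of the 11. Cyp21a1, the steroid 21-hydroxylase better known from the adrenal cortex, read 9.19 and 9.04 in 129/Sv and 9.32 and 9.39 in M19 at E15.5, and 10.16 to 10.66 at E17.5, a rise of 1.19 (SE 0.09, adjusted p = 0.0002) that was called in each strain. The other members moved less. Star, which carries cholesterol into mitochondria, rose by 0.60 (adjusted p = 0.01), Hsd3b1 by 0.40 (adjusted p = 0.017), the lipoprotein receptor Scarb1 by 0.42 (adjusted p = 0.021), the side-chain cleavage enzyme Cyp11a1 by 0.39 (adjusted p = 0.037) and Cyp17a1 by 0.34 (adjusted p = 0.037). With 1 array left out the count of 8 was 2 without either M19 array of E15.5 or the second 129/Sv array of E17.5, 3 without either M19 array of E17.5, 4 without the first 129/Sv array of E17.5 and 5 without either 129/Sv array of E15.5. Cyp21a1 kept its call in each of these fits, Star lost it in 1, Hsd3b1 and Scarb1 in 5, Cyp11a1 in 7 and Cyp17a1 in all 8.

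By their brightest probe sets none of 10 adrenal and chromaffin genes was called (limma, 4 at an unadjusted p under 0.05). Another probe set of Pnmt, the enzyme that makes adrenaline in chromaffin cells, rose by 2.45 (SE 0.13, adjusted p = 2.8e-05), by 2.54 in 129/Sv and 2.36 in M19, while the brightest one changed by -0.25 (adjusted p = 0.13) and the remaining one by 0.16 (adjusted p = 0.29). The summed signal of the brightest probe sets was 12.47 to 12.56 in 129/Sv and 12.19 to 12.25 in M19 at E15.5, and 12.25 to 12.38 and 12.27 to 12.30 at E17.5. Their part in the rise of Cyp21a1 was not tested. None of 19 cholesterol synthesis genes was called either (6 at an unadjusted p under 0.05), with a median step of 0.12 after 0.71 before E15.5; Hmgcs1, an early enzyme of that pathway, changed by 0.12 (adjusted p = 0.4). None of 13 hedgehog pathway genes, which link Sertoli to Leydig cells, was called (3 at an unadjusted p under 0.05).

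Of 14 peritubular muscle genes, 9 were shared higher and none lower (4.81% and 4.12% over all genes), with a median step of 0.40. The defining marker Cnn1 changed by 0.36, which did not pass the test (adjusted p = 0.11). Myh11, the smooth muscle myosin heavy chain, read 9.06 and 9.23 in 129/Sv and 9.11 and 8.88 in M19 at E15.5, and 10.24 and 10.29 in 129/Sv and 9.98 and 10.06 in M19 at E17.5. It rose by 1.07 (SE 0.09, limma adjusted p = 0.00032). Another, dimmer probe set of Myh11 changed by 0.37 (adjusted p = 0.12). Dimmer probe sets of Acta2 also went uncalled, at 0.08 and 0.00, unlike its brightest one given below. Actg2, the gamma smooth muscle actin, rose by 1.07 (SE 0.11, adjusted p = 0.0012) and Tagln, an actin-binding protein, by 0.96 (SE 0.08, adjusted p = 0.00041), each called in both strains. The myosin kinase Mylk rose by 0.59 (adjusted p = 0.003), the myosin light chain Myl9 by 0.74 (adjusted p = 0.013) and Acta2, the alpha smooth muscle actin, by 0.48 (adjusted p = 0.0079); Myl9 and Acta2 lost their calls without 2 and 1 arrays. The count of 9 was 5 without either M19 array of E15.5 or the second 129/Sv array of E17.5, and 6 without the first array of either strain at E17.5. Smooth muscle of vessels also expresses these genes, and its part was not tested: 2 of 17 endothelial genes were shared higher, among them Cdh5, the cadherin of vessel walls, by 0.76 (SE 0.09, adjusted p = 0.0018), and the summed endothelial signal was 13.77 to 13.84 at E15.5 and 13.99 to 14.08 at E17.5.

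Of 22 genes of matrix proteoglycans and elastic fibres, 9 were shared higher and none lower (4.81% and 4.12% over all genes). The median step was 0.20. Eln, which encodes elastin, read 10.93 and 11.05 in 129/Sv and 10.65 and 10.73 in M19 at E15.5 and 11.87 to 12.11 at E17.5, a rise of 1.13 (SE 0.08, adjusted p = 0.00018). The small proteoglycan gene Ogn rose by 1.06 (adjusted p = 0.0014), the matrix Gla protein Mgp by 0.96 (adjusted p = 0.00099), Mfap4, a protein of elastic fibres, by 0.88 (adjusted p = 0.00056), Fbln5, which assembles elastic fibres, by 0.69 (adjusted p = 0.0061) and decorin, Dcn, by 0.48 (adjusted p = 0.0084). Each kept its call with any 1 array left out. Another probe set of Dcn changed by 0.02 (adjusted p = 0.94).

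Of 20 basement membrane genes, 8 were shared higher and none lower (4.81% and 4.12% over all genes). The median step was 0.32 after -0.08 before E15.5. Col4a4, an alpha chain of collagen IV, read 9.95 and 10.10 in 129/Sv and 9.93 and 9.99 in M19 at E15.5, and 11.49 and 11.37 in 129/Sv and 10.78 and 11.10 in M19 at E17.5, a rise of 1.19 (SE 0.10, adjusted p = 0.00027). Its other probe sets changed by 0.34 (limma adjusted p = 0.056) and 1.25 (adjusted p = 0.00044), the latter by 1.52 in 129/Sv and 0.98 in M19. The partner chain gene Col4a3 rose by 0.47 (adjusted p = 0.012), to values around the array median, and lost its call without 2 of the arrays. A dimmer probe set of Col4a3 rose by 0.99 (limma adjusted p = 0.0065). Lama2, the laminin alpha 2 chain, rose by 1.07 (SE 0.09, adjusted p = 0.00027). Without the first M19 array of E15.5 or the first 129/Sv array of E17.5 the count of 8 was 3, without the second 129/Sv array of E17.5 it was 4, and without the second array of either strain at E15.5 or the first M19 array of E17.5 it was 5; Col4a4 and Lama2 kept their calls in each.

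**Figure D3:**
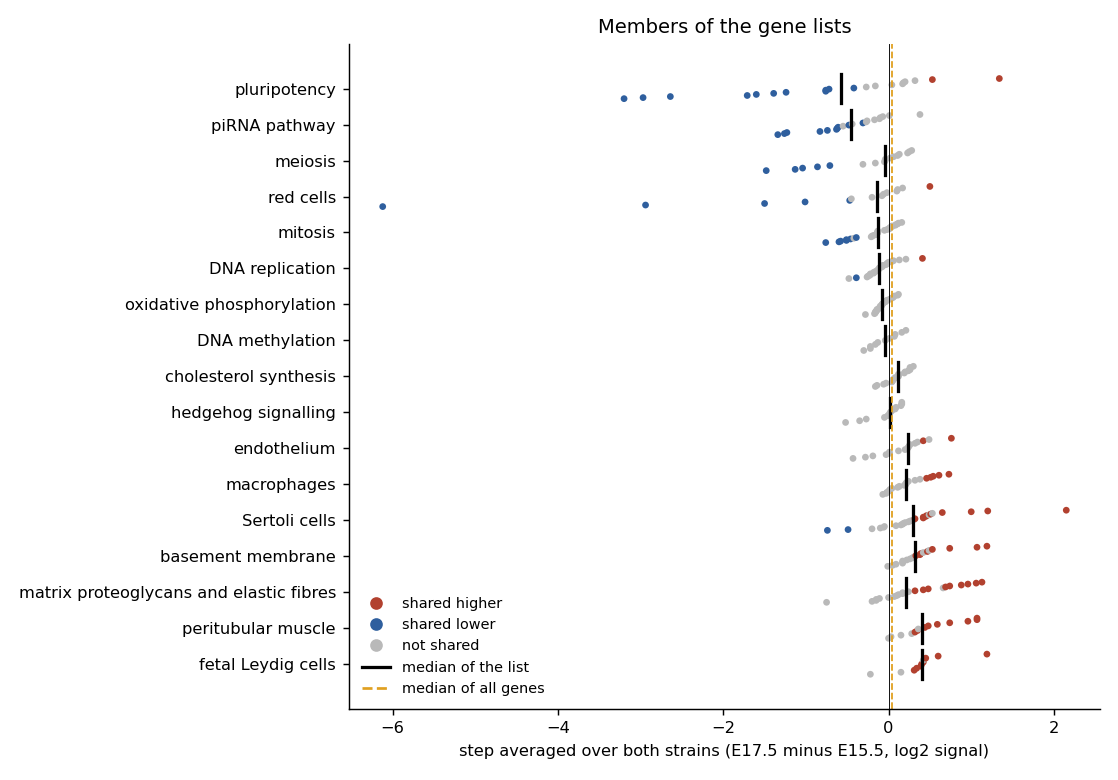
Step averaged over both strains of the members of 17 gene lists, in log2 signal. Each point is a gene (red shared higher, blue shared lower, grey neither), the black bar is the median of the list, and the dashed orange line is the median of all genes, 0.04. Pluripotency (-0.57) and piRNA pathway (-0.46) have the lowest medians drawn, and peritubular muscle and fetal Leydig cells (both 0.40) the highest.

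Growth regulators changed in both directions. Hmga2, a chromatin protein of fetal growth, fell by 1.89 (SE 0.10, adjusted p = 2.8e-05), from 11.06 and 11.11 in 129/Sv and 11.51 and 11.68 in M19 to between 9.32 and 9.73, after a fall of 2.06 before E15.5. Igf1, a growth factor, rose by 0.98 (SE 0.10, adjusted p = 0.00099), from 10.90 to 11.33 at E15.5 to 11.70 to 12.31 at E17.5. Its binding protein gene Igfbp6 rose by 1.27 (SE 0.09, adjusted p = 0.00016), from 8.75 to 9.01 to between 9.93 and 10.32, and Igfbp7 rose by 0.66 (adjusted p = 0.0047), though its other probe sets changed by 0.07 and 0.09. All 4 were called in each strain. Cdkn1c, an imprinted inhibitor of cyclin-dependent kinases, fell by 0.73 (SE 0.09, adjusted p = 0.002), and Dlk1, an imprinted gene of stromal progenitors, rose by 0.56 (adjusted p = 0.0075), while its other probe set changed by -0.60 (adjusted p = 0.11). In the apoptosis list 2 of 14 genes were shared lower and none was shared higher (4.12% and 4.81% over all genes). Pmaip1, which encodes the pro-death protein NOXA, fell by 1.34 (SE 0.20, limma adjusted p = 0.006).

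Genes of adhesion and of the reproductive ducts changed in both directions. Cdh1, which encodes E-cadherin of epithelia and of fetal germ cells, read 9.32 and 9.80 in 129/Sv and 9.95 and 9.64 in M19 at E15.5, and 6.79 and 6.84 in 129/Sv and 8.10 and 8.47 in M19 at E17.5. It fell by 2.13 (SE 0.14, adjusted p = 8e-05), by 2.74 in 129/Sv and 1.51 in M19, a difference that did not pass the test (adjusted p = 0.32). Hoxa10, a Hox gene of the reproductive ducts, fell by 1.91 (SE 0.25, adjusted p = 0.0031), with steps of -2.90 in 129/Sv and -0.93 in M19, where it missed the threshold (adjusted p = 0.21); it was brighter in 129/Sv (8.48 and 9.41) than in M19 (6.83 and 6.53) at E15.5. Emx2, a homeobox gene of the urogenital epithelium, fell by 0.94 (SE 0.11, adjusted p = 0.0018) in both. Of 17 genes of mesonephros and ducts, 4 were shared lower and 3 shared higher (4.12% and 4.81% over all genes). The latter included the keratin Krt18 by 0.68 (limma adjusted p = 0.0031) and Lcn2, an iron-binding protein that neutrophils also carry, by 0.83 (adjusted p = 0.0041). The junction gene Cldn1 rose by 1.13 (SE 0.14, adjusted p = 0.0023) and Ocln by 0.56 (adjusted p = 0.01).

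A minority of the immune cell genes were shared higher. Of 21 macrophage genes, 5 were shared higher and none lower (4.81% and 4.12% over all genes). The defining markers were divided: C1qa was shared higher, by 0.46 (limma adjusted p = 0.034). Csf1r changed by -0.02 (adjusted p = 0.91) and Cd68 by -0.07 (adjusted p = 0.67). The lysozymes Lyz1 and Lyz2 rose by 0.73 (adjusted p = 0.006) and 0.61 (adjusted p = 0.0042), and the protease Ctss by 0.54 (adjusted p = 0.0063). Of 13 lymphocyte, mast cell and granulocyte genes 3 were shared higher, all of them products of neutrophils: S100a8 by 0.62 (adjusted p = 0.014), S100a9 by 0.76 (adjusted p = 0.0017) and Ngp by 0.82 (adjusted p = 0.0012). S100a8 lost its call without any of 3 arrays. Among 16 interferon response and MHC genes, 5 were shared higher, including Irf7, which drives type I interferon genes, by 0.59 (adjusted p = 0.0041) and the MHC class I gene H2-D1 by 0.49 (adjusted p = 0.0084), and 2 were shared lower. Of 8 other probe sets of H2-D1, 3 were shared higher and 5 were not. The 5 genes became 2 without the first M19 array of E15.5 and 3 without the second or either 129/Sv array of E17.5. Afp, a plasma protein made by fetal liver and yolk sac, read 9.56 to 10.12 at E15.5 and 10.52 to 10.97 at E17.5, a rise of 0.91 (SE 0.15, adjusted p = 0.0087), and the fibrinogen chain gene Fgg rose by 0.59 from below the array median. In these lists the defining marker Cd68 of macrophages and Alb of liver lay below the array median on all 8 arrays. The metallothionein Mt1, which binds zinc, rose by 0.87 (adjusted p = 0.0013), as 1 of 5 shared higher among 20 redox and detoxification genes (2 without the second 129/Sv array of E17.5, and 3 without the first, without either M19 array of E15.5 or without the first M19 array of E17.5), and the immediate early gene Egr2 by 0.89 (adjusted p = 0.0083).

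The remaining leading genes fell outside the lists. Cst12, a cystatin of the testis, read 8.98 and 9.15 in 129/Sv and 9.17 and 8.74 in M19 at E15.5, and 12.19 and 12.07 in 129/Sv and 11.64 and 11.48 in M19 at E17.5. It rose by 2.84 (SE 0.11, 7.14-fold, adjusted p = 5.3e-06), after a rise of 2.33 before E15.5. Ccl17, a chemokine, rose by 1.71 (SE 0.09, adjusted p = 2.3e-05) from 9.73 to 10.44 to between 11.53 and 12.04, and Adamts5, a protease that cuts proteoglycans, by 1.70 (SE 0.12, adjusted p = 0.00015) from 9.68 to 10.31 to between 11.25 and 11.81. Spock2, a matrix proteoglycan, rose by 1.28, Kdm1b, a histone demethylase, by 1.34, the monoamine oxidase Maob by 1.17 and Efemp1, a matrix glycoprotein, by 1.30. Islr2, Stfa2l1, Plbd1 and the myosin gene Myh2 rose by 1.36, 1.32, 1.20 and 1.22. Ccdc113, a gene of ciliary structures, had the largest rise of all, 2.98 (SE 0.08, adjusted p = 5.4e-07), but was named only after its value was seen, since its signal of 8.08 at E17.5 still lay below the array median.

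Of the lower leading genes outside the lists, Tex14, a component of the bridges between germ cells, fell by 1.46 (SE 0.08, adjusted p = 3.5e-05), from 11.19 to 11.62 to between 9.73 and 10.07, after a rise of 1.39. Rrad, a small GTPase, rose by 3.24 before E15.5 and then fell by 1.67 (SE 0.08, adjusted p = 2e-05). The zinc finger gene Glis3 fell by 1.96, the uridine phosphorylase Upp1 by 1.52, Khdc1a by 1.96 and Gm6958, whose probe set may bind related transcripts, by 2.10. Of the 30 leading genes, 7 have other probe sets, 13 in all, and each of the 13 moved in the same direction as the one described. Not all were shared changes themselves: 4 of 5 were for the higher genes and 6 of 8 for the lower genes.

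**Figure D4:**
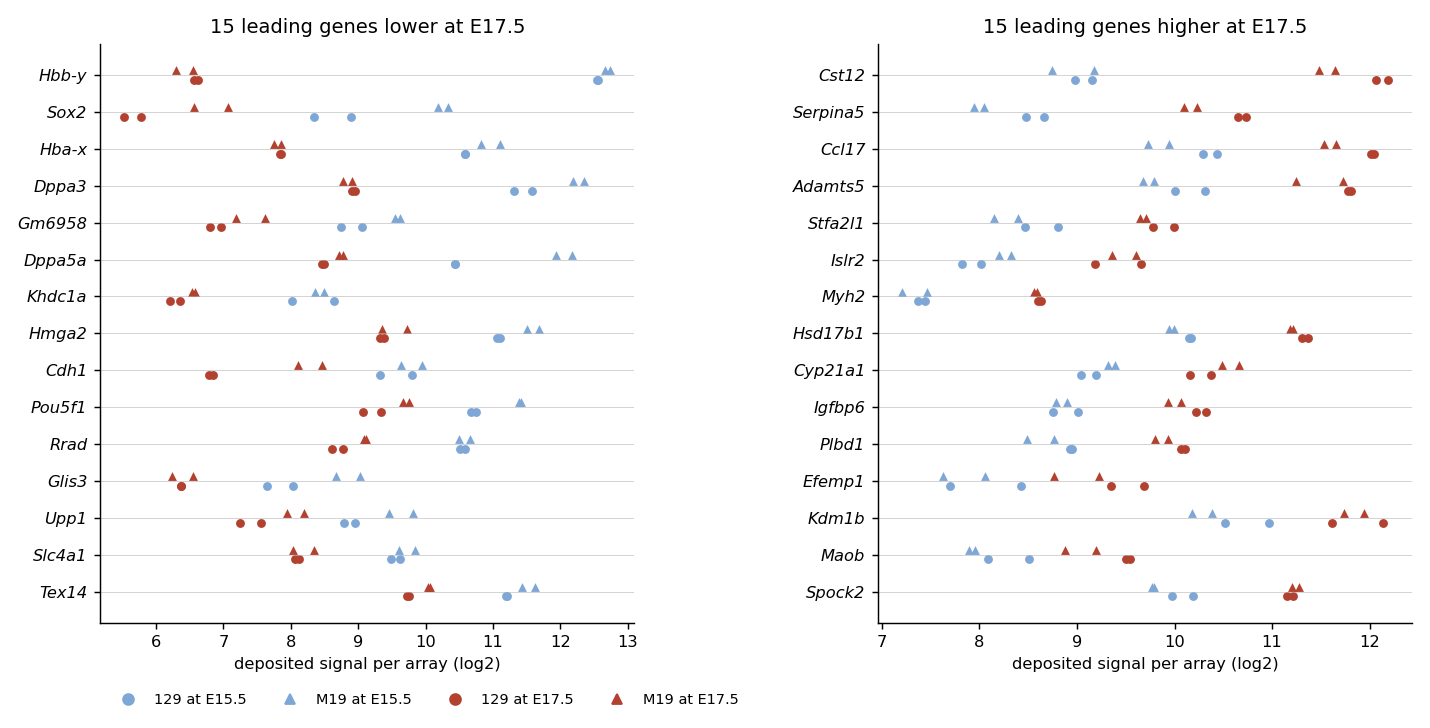
Deposited log2 signal on each of the 8 arrays for the 15 leading lower genes (left) and the 15 leading higher genes (right), ranked by the smaller of both strains' steps. Circles are 129/Sv and triangles M19, light blue E15.5 and red E17.5. The genes were picked among shared changes, so by that rule the E17.5 arrays of a strain lie on 1 side of its E15.5 arrays. Hbb-y spans the widest range, from 12.74 to 6.30.

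Against these shared changes, the step differed between the strains for 59 probe sets (limma, 0.131% of those tested), 56 more positive in M19 and 3 more negative. The 59 became 25 without either M19 array of E15.5, and 19 and 17 without the first or second 129/Sv array of E17.5. The tissues that were high on the 129/Sv arrays of E15.5 had members among them: 7 of 15 skin genes, 6 of 18 skeletal muscle genes and 3 of 17 cartilage and tendon genes. Krt5, a keratin of basal epidermis, read 10.74 and 10.73 in 129/Sv and 7.76 and 7.85 in M19 at E15.5, and 7.75 to 8.07 on all 4 arrays of E17.5. Its step was -2.87 in 129/Sv and 0.13 in M19 (adjusted p of the difference 0.00044). Actc1, the cardiac alpha actin also made in fetal muscle, changed by -2.82 in 129/Sv and 0.73 in M19 (adjusted p of the difference 7.3e-05). Among the 3 lists, 4 members were nonetheless shared changes: Col9a3, a cartilage collagen gene also made by Sertoli cells, fell by 1.06 (SE 0.09, adjusted p = 0.00031), by 1.11 in 129/Sv and 1.00 in M19. Sbsn and Matn4 fell by 0.93 and 0.78, mostly in 129/Sv, and Col11a2 rose by 0.39. Col11a2 lost its call in 6 of the 8 fits that left out 1 array (highest adjusted p over all alternatives 0.13), and another probe set of Sbsn changed by 0.02.

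Compared with the preceding 2 days, the later step was more negative for 906 genes (5.02%) and more positive for 252 (1.40%) by the test of late minus early step on all 12 arrays, in which both steps share the E15.5 arrays. At E13.5 the 18S probe sets read 9.69 and 7.27 in 129/Sv and 7.67 and 7.92 in M19. The arrays of a group correlated there at 0.979 in 129/Sv and 0.996 in M19. The part of this spread in the early steps was not tested. Examples with both values are Hbb-y, which fell by 1.87 and then by 6.12, Dppa4, which rose by 1.69 and then fell by 1.24, and Igfbp6, which changed by -0.22 and then rose by 1.27. Of the lists, the piRNA pathway had 19 of 20 members in the more negative class, fetal Leydig cells 8 of 11, cholesterol synthesis 8 of 19 and meiosis 7 of 17, while mesonephros and ducts had 6 of 17 in the more positive class. Peritubular muscle had none in either: its median was 0.40 in both steps. The count of called probe sets rose when either 129/Sv array of E13.5 was left out. Leaving out the first M19 array of E15.5 lowered the count of called probe sets from 2062 to 942, the second to 1332, the second 129/Sv array of E15.5 to 1293, and either M19 array of E13.5 to 1334 or 1363.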

How the data were processed

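RNA of male fetal gonads was measured on 12 Affymetrix mouse arrays, 8 of which enter the step. The authors deposited 1 value per probe set and array, taken here as log2 signal from its range; the log base, summary method and normalization are not given in the sources used here. Of 45101 probe sets, 64 controls were left out and 45037 were tested without any filter on signal. A group mean per strain and stage was fitted with limma 3.58.1 in R 4.3.3 (8 arrays, 4 residual degrees of freedom), and p-values were adjusted by Benjamini-Hochberg over all probe sets, with a threshold of 0.05. The early step and the late minus early step came from all 12 arrays. The platform annotation gave 34945 probe sets 1 symbol, 932 several and 9160 none; 34741 probe sets were matched to RefSeq by Entrez ID, and 18032 genes were tested, each given by its brightest probe set; probe sets of a gene can disagree.

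Same-numbered arrays were not paired, since their deviations correlated between -0.347 and 0.538. On simulated data the fit of the average step recovered 26.9% of steps of 0.5, 83.6% of steps of 1 and 98.5% of steps of 2. In that simulation 11 of 150 calls were false. Only 67, 67 and 66 probe sets were changed by these sizes, against 3090 called in the data, so the rates need not carry over. Named genes are the 15 each way with the largest step in the strain where it was smaller, among shared changes above the median signal at the stage where they were higher, and members of 41 gene lists. The members and lists were chosen with earlier results of these data known. Alternatives covered normalization, filters on signal, variance sharing, the choice of probe set and single arrays left out.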

Additional observations from a re-analysis of the deposited data

Results flagged for a closer look

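The step differed between the strains (limma, test of the difference of steps, M19 minus 129/Sv) for 59 probe sets. For Krt1 the difference was 3.70, for Krt5 3.00, for Krt15 3.19, for Krtdap 3.38, for Krt10 2.31, for Krt14 1.65 and for Perp 4.04, all genes of stratified epithelium. Of muscle genes, the difference was 3.54 for Actc1, 2.83 for Myh3, 1.57 for Myh8, 1.42 for Tnnc2, 2.01 for Mylpf and 2.21 for Myl1. Of cartilage, tendon and stromal genes, it was 2.84 for Col2a1, 2.59 for Tnmd, 3.33 for Kera, 1.55 for Crabp1 and 1.61 for Postn. Postn read 11.72 and 11.87 in 129/Sv and 10.35 and 10.04 in M19 at E15.5, and 10.36 to 10.57 on the 4 arrays of E17.5. The summed skin, muscle and cartilage signals that move with these genes on the 129/Sv arrays of E15.5 are given above, and their part was not tested. Dppa5a differed the other way, by -1.34, with the larger fall in M19.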

How the results depend on the processing

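Without sharing of variance between probe sets, 742 probe sets were called for the average step instead of 3090, 51 for the step in 129/Sv instead of 700, 27 for that in M19 instead of 890, 17 in both strains instead of 323 and 6 for the strain difference instead of 59, with 252 shared higher genes instead of 867 and 200 shared lower instead of 743. The 4 129/Sv arrays alone gave 429 calls for the step in 129/Sv. A variance trend with robust fitting gave 1391 calls for the step in M19. Only probe sets above the median signal gave 22 strain differences, and the mean of all probe sets of a gene gave 1357 shared higher genes. With a replicate block, which takes the array numbers as pairs, the average step had 2149 calls and the step in M19 590. Leaving out 1 array at a time gave 854 to 3611 calls for the average step, 135 to 726 in 129/Sv, 97 to 1389 in M19, 76 to 302 in both strains, 17 to 82 strain differences, 264 to 766 shared higher and 221 to 957 shared lower genes, and 942 to 2943 for the late minus early step. With 1 array left out, the lone array of its group is assumed to vary like the other groups. The cause of these changes was not tested. Steps of 0.5 were recovered in 26.9% of simulated cases, where far fewer probe sets changed than were called here. Small steps may be missed, at a rate that was not measured in these data.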
